A study of Mus musculus with 8 samples.

Results

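Cytochrome P450 enzymes of families 2, 3 and 4 were followed in 3 liver libraries labelled as Midn hemizygotes and 5 wild-type ones. The genes were all rows of the deposited count table whose symbol starts with Cyp2, Cyp3 or Cyp4 and a subfamily letter, which gave 83 rows. From these, 13 genes set as exceptions (Cyp2e1, Cyp2d9, Cyp3a11 and Cyp4a10 among them) and 4 pseudogenes were kept out. This left 66 genes in 19 subfamilies out of 25078 genes in the table. Those kept still include 5 genes listed as pericentral and 6 known from female mouse liver. Of the 66, 59 had at least 1 count and 42 passed the filter on low counts and were tested.

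All 8 libraries came from livers of male C57/BL6 mice that had eaten, for 25 weeks, a Western-style diet rich in fat, fructose and cholesterol, used to bring about fatty liver disease. The wild-type livers are therefore diet-fed as well and not healthy ones. Libraries of the hemizygous (het) group are named het-labelled in what follows. The allele is a global knockout, so no cell type is singled out, and homozygotes mostly died as embryos per the submitters' design text. Midn encodes midnolin, which carries short-lived nuclear proteins to the proteasome. Its own level did not separate the groups. Midn stood at 60.4, 39.1 and 51.7 CPM (counts scaled to a common library total after TMM) in het-labelled libraries 1 to 3 and at 68.7, 39.8, 71.5, 41.7 and 29.3 CPM in wild-type libraries 1 to 5. The log2 fold change came to 0.00 (SE 0.30), with −0.54 against wild-type libraries 1 and 3 alone and 0.40 against the other 3 alone, and a two-sided exact permutation test gave p = 1. Each direction below is therefore that of the libraries as labelled.

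P450 enzymes are membrane-bound, heme-containing monooxygenases that sit mostly in the endoplasmic reticulum and take electrons from P450 reductase and cytochrome b5. Families 2 and 3 are known for oxidising drugs, steroids and, for the Cyp2c and Cyp2j enzymes, arachidonic and linoleic acid, while family 4 hydroxylates fatty acids and leukotrienes at their far end. In mouse liver many of them are zonated between portal and central vein and respond to nuclear receptors, and several have neighbouring near-copies on the same chromosome.

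Libraries held 17508221 to 24916239 counts. Total counts were 24916239, 17508221 and 24645260 in het-labelled libraries 1 to 3, so library 2 was the shallowest of the 8. The share of Rpph1, a structural RNA without a poly(A) tail, was 0.229 to 0.399% in het-labelled libraries, 0.331 and 0.304% in wild-type libraries 1 and 3, and 0.673 to 1.06% in wild-type libraries 2, 4 and 5. No label gives this split of the wild-type libraries, which was seen in their own values. Adjusted p-values against either set are therefore descriptive only. Where the direction turned between these 2 sets, the log2 fold change against each is given for the tested P450 genes followed here. It is also given for their electron donors and partners, but not for every heme or regulator gene. On the first principal component (48.9% of variance) het-labelled libraries 1 and 3 scored −42.7 and −51.9, near −30.6 and −27.9 of wild-type libraries 4 and 5. Library 2 of the het-labelled group scored 10.5, on the side of the remaining wild-type libraries (27.6 to 71.8). The hepatocyte markers Alb, Apoa1, Ttr and Serpina1a were abundant in every library. Their summed level was 61235, 34441 and 52276 CPM in het-labelled libraries 1 to 3 and 29903 to 36819 CPM in wild-type libraries. In this sum, most of which was Alb, het-labelled libraries 1 and 3 lay above the wild-type range and library 2 inside it. Alb, Apoa1 and Serpina1a each split in this way, as many P450 genes did. For Ttr all 3 het-labelled libraries lay above every wild-type one. The part of these markers in the P450 results was not tested. In bulk tissue, fewer cells of a type and less RNA per cell cannot be told apart.

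Across the 42 tested genes, more were higher than lower in het-labelled livers, and the largest differences were among the Cyp2c, Cyp2d and single-gene subfamilies. Before adjustment, at p under 0.05 in edgeR's quasi-likelihood test, 17 were higher (40.5%), where the share over all 14438 tested genes was 10.3%, and 1 was lower (2.38%), where it was 5.43%. Genes past this level are called nominally higher or lower below, and each later count is to be read beside these shares of all tested genes. None passed adjustment over all genes, as for the whole table (0%), and the smallest adjusted p was 0.259. The median log2 fold change came to 0.49, against 0.00 over all tested genes. The filter keeps a gene that is expressed in as few as 3 libraries, so these counts describe the tested genes, not the 66. DESeq2, run on the table without that filter, called 5 higher, among 0.694% of genes with an adjusted p, and 0 lower, where 0.528% of genes were called. The 5 were Cyp2c54, Cyp2c50, Cyp2d26, Cyp2u1 and Cyp4v3. In simulated data, at an adjusted p under 0.05, DESeq2 falsely called 42 of 14238 unchanged genes and edgeR 5. DESeq2 was thus the less strict of the 2 tools in that simulation. The simulated counts were drawn independently for each gene, without the split among wild-type libraries. These rates therefore need not hold for the real libraries.

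**Figure D1:**
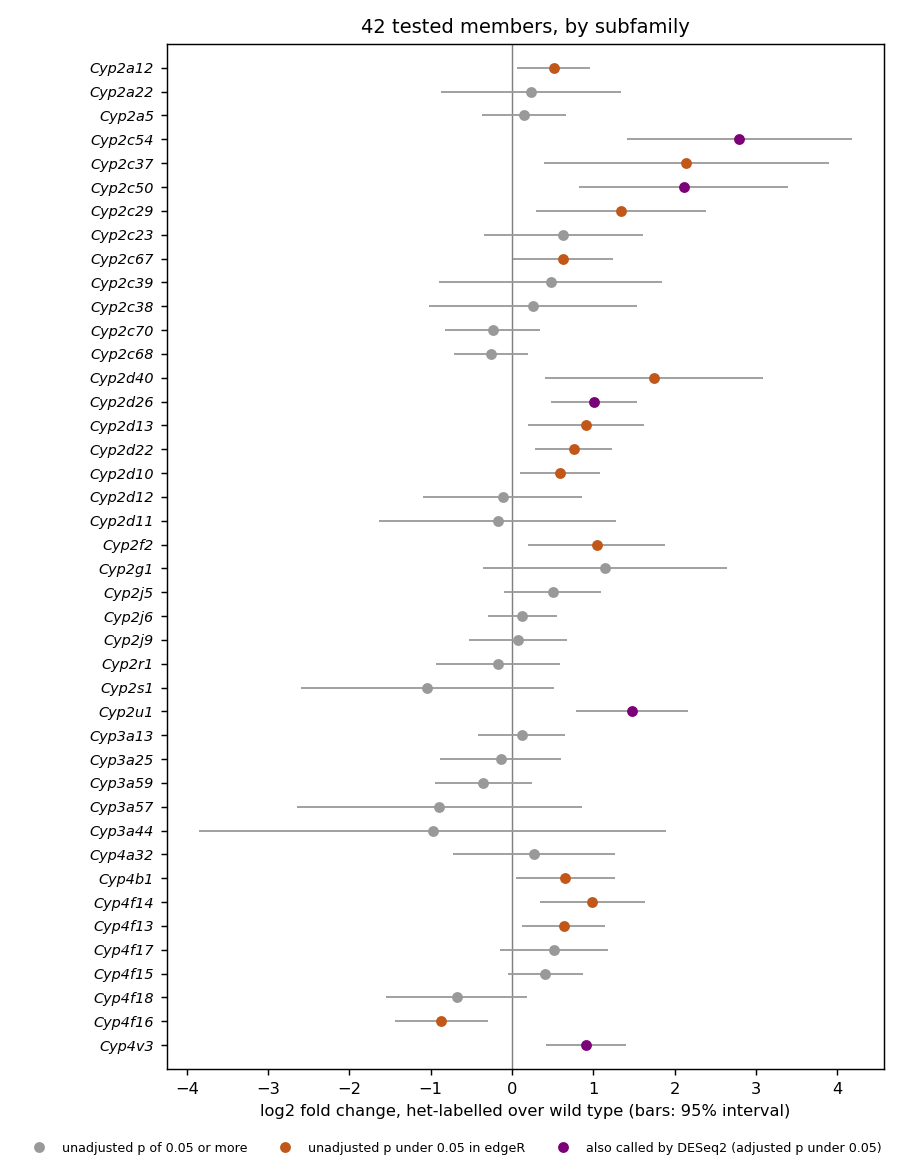
Log2 fold changes (het-labelled over wild type, x axis) of the 42 tested genes, grouped by subfamily from Cyp2a at the top to Cyp4v at the bottom, with 95% intervals as bars. Cyp2c54 lies farthest to the right at 2.79 and most Cyp2d genes lie above 0, while the Cyp3a genes lie around or below 0.

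The 3 het-labelled livers were not alike. Libraries 1 and 3 both lay above every wild-type library for 19 tested genes (45.2%, against 22.2% of all tested genes), and in 15 of these library 2 did not (35.7%, against 14.7%). Library 2 was the lowest of the 3 for 28 genes and lay inside the wild-type range for 32, compared with 16 for library 1 and 18 for library 3. All 3 lay above every wild-type library for 4 genes (9.52%, against 7.54% of all tested genes), namely Cyp2d26, Cyp2d40, Cyp2u1 and Cyp4v3, and below for 1 (2.38%, against 2.32%), Cyp4f16. The 17 nominally higher genes became 7 when het-labelled library 1 was left out, and 11 when library 3 of that group or library 2 of the wild type was. The 1 lower gene became 3 when het-labelled library 2 or, separately, wild-type library 3 was left out.

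**Figure D2:**
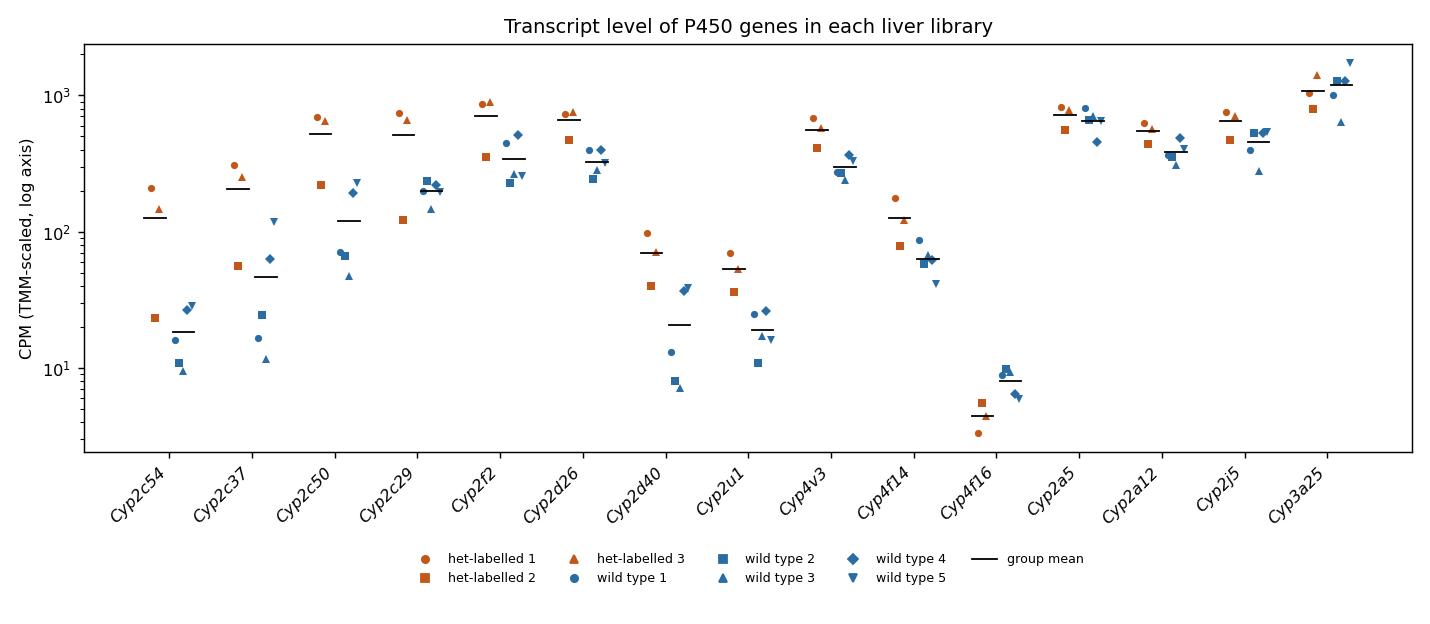
CPM on a log axis for 15 P450 genes, with het-labelled libraries in orange at the left and wild-type libraries in blue at the right of each gene, and a bar at each group mean. For Cyp2c54, Cyp2c37 and Cyp2c50 the orange square of het-labelled library 2 sits within the blue range and for Cyp2c29 below it, while libraries 1 and 3 sit above.

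The Cyp2c genes other than Cyp2c23 lie in a cluster on chromosome 19 (mm10), and 3 neighbours in it, Cyp2c37, Cyp2c54 and Cyp2c50, had the largest differences of the subfamily. Their enzymes, and that of Cyp2c29, oxidise arachidonic acid in mouse liver and are known from hepatocytes near the central vein. Cyp2c54 (chromosome 19, 40037940 to 40073813, minus strand) had 209, 23.1 and 147 CPM in het-labelled libraries 1 to 3, against 16.0, 10.9, 9.60, 26.5 and 28.3 CPM in wild-type libraries 1 to 5. Libraries 1 and 3 stood above the wild-type range and library 2 inside it. The log2 fold change came to 2.79 (SE 0.61, 95% interval 1.41 to 4.18, edgeR adjusted p = 0.259, DESeq2 adjusted p = 0.00265). It was 3.23 against wild-type libraries 1 and 3 alone and 2.48 against the other 3 alone.

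Cyp2c50 (40089679 to 40113955, plus strand) had 689.7, 219.7 and 650.1 CPM in het-labelled libraries and 70.7, 65.9, 47.7, 191 and 226 CPM in wild-type libraries. Here library 2 lay just under wild-type library 5, and the wild-type libraries themselves split into 3 low and 2 high ones. The log2 fold change came to 2.11 (SE 0.57, edgeR adjusted p = 0.259, DESeq2 adjusted p = 0.0287), 3.06 against wild-type libraries 1 and 3 alone and 1.64 against the other 3 alone. Cyp2c37 (39992424 to 40012243, plus strand) had 310.5, 55.9 and 250.4 CPM in het-labelled libraries and 16.6, 24.5, 11.6, 63.0 and 117 CPM in wild-type libraries, and the same wild-type libraries 4 and 5 were the high ones. Its log2 fold change came to 2.15 (SE 0.78, edgeR adjusted p = 0.273, DESeq2 adjusted p = 0.211). Against wild-type libraries 1 and 3 alone it was 3.80, and against wild-type libraries 2, 4 and 5 alone 1.54.

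Cyp2c29, farther along the cluster (39287085 to 39330713, plus strand), had 742, 122.6 and 658 CPM in het-labelled libraries and 199.9, 236, 146, 219.8 and 197 CPM in wild-type libraries. Libraries 1 and 3 were far above the wild-type values, which lay close together, and library 2 was the lowest of the 8. The log2 fold change came to 1.34 (SE 0.46, edgeR adjusted p = 0.268).

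**Figure D3:**
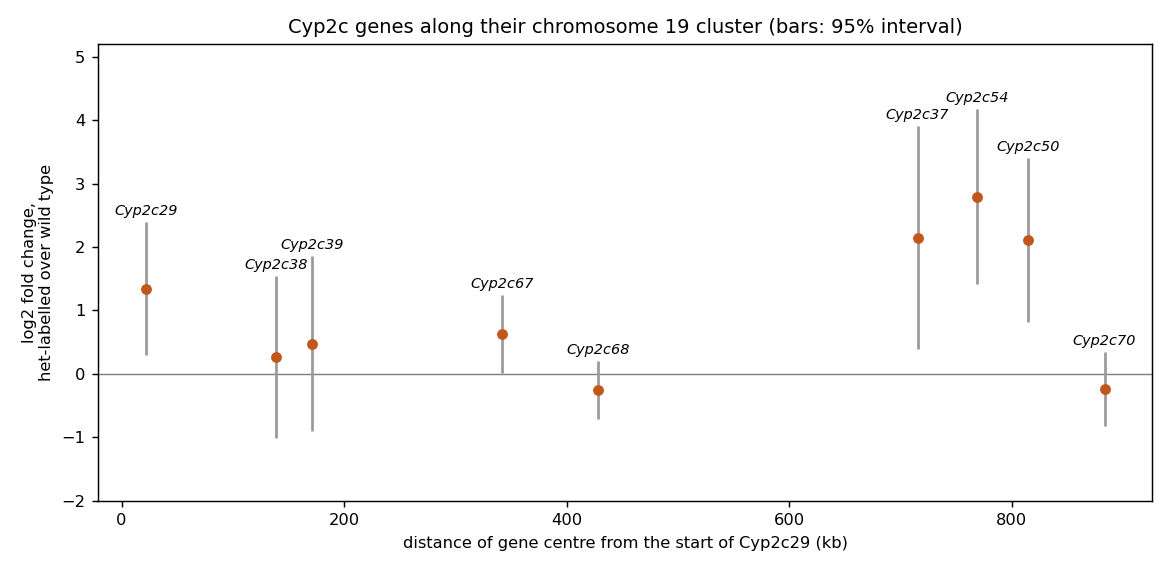
Log2 fold change (het-labelled over wild type, y axis, 95% interval as bars) of each tested Cyp2c gene of the cluster against the distance of its centre from the start of Cyp2c29 (x axis, kb). Cyp2c37, Cyp2c54 and Cyp2c50 stand side by side above 2, and their neighbour Cyp2c70 lies at −0.24.

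The other Cyp2c genes differed less. Cyp2c70, which makes muricholic acids in mouse liver, is the next gene after Cyp2c50, and had 340.3, 201 and 272 CPM in het-labelled libraries against 420.3, 395, 293, 254 and 239 CPM in wild-type libraries. The groups overlapped, with a log2 fold change of −0.24 (SE 0.26). Cyp2c67 was nominally higher (log2 fold change 0.63), and Cyp2c68 stood at −0.26, with 0.01 against wild-type libraries 1 and 3 and −0.49 against the other 3. The gene spans of Cyp2c38 and Cyp2c39 overlap on opposite strands, so some of their reads may be mixed without strand information. Overlap of their exons was not examined. Cyp2c38 stood at 0.26, with 1.17 against wild-type libraries 1 and 3 and −0.19 against the other 3, and Cyp2c39 stood at 0.48, with 1.96 and −0.10 against those sets, so the direction of both turned with the wild-type libraries used. Cyp2c23, an arachidonate epoxygenase known from rat kidney, stood at 0.63 overall. It was −0.07 against wild-type libraries 1 and 3 and 1.25 against wild-type libraries 2, 4 and 5 (edgeR adjusted p = 0.0332). In all, 5 of the 10 tested Cyp2c genes were nominally higher and 0 lower. Their 14 members summed to 2930, 1068 and 2462 CPM in het-labelled libraries and to between 833 and 1244 CPM in wild-type libraries, so library 2 was inside the wild-type range as a sum too.

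Near-copies share sequence, which bears on how far single genes can be read. Among transcripts of GENCODE M21 (mm10), 30.1% of the 50-base words of Cyp2c37 also occurred in another gene, most often in Cyp2c50 (21.1%). The share was 25.7% for Cyp2c54, 18.3% for Cyp2c50, 4.25% for Cyp2c29 and 0% for Cyp2c70. Of the 41 tested genes with such transcripts, 17 shared over 10% and 10 under 1%. Cyp4a32 shared 43.8%, most often with Cyp4a10 (32.6%), and Cyp3a25 shared 26.8%, most often with Cyp3a59 (25.2%). The sources used here do not say how reads matching several genes were counted, so sums over a subfamily are given beside single genes. The sums leave out the genes kept out, such as Cyp2a4 and Cyp4a10, so they do not cover reads shared with those.

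The promoters of Cyp2c37 and Cyp2c50 are printed because these neighbours had similar fold changes, with Cyp2c29 as a distant gene that was also nominally higher and Cyp2c70 as the adjacent gene with a log2 fold change of −0.24. Each window holds 250 bases before and 50 after the start, 5′ to 3′ on the gene's strand, from RefSeq on GRCm38.p6 (the same assembly as mm10). The windows are chr19:39992174-39992473 (plus strand) for Cyp2c37, chr19:40089429-40089728 (plus) for Cyp2c50, chr19:39286835-39287134 (plus) for Cyp2c29 and chr19:40187237-40187536 (minus) for Cyp2c70. Capitals mark matches on either strand to the searched words described after them.
Cyp2c37: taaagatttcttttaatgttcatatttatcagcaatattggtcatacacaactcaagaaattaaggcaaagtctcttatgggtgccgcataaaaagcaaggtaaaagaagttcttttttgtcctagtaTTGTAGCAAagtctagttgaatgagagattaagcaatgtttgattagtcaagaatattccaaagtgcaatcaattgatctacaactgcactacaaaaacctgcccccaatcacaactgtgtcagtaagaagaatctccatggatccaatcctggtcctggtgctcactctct
Cyp2c50: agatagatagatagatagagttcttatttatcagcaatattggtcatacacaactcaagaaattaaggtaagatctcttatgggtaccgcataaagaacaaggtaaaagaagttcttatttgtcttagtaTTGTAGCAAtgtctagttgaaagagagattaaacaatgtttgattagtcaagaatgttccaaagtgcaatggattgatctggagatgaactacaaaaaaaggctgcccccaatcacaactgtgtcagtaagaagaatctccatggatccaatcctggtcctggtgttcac
Cyp2c29: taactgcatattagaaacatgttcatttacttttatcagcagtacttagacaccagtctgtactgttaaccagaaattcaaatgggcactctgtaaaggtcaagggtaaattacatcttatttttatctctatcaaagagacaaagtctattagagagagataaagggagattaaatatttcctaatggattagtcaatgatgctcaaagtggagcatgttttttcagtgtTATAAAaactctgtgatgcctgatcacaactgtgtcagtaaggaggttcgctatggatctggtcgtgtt
Cyp2c70: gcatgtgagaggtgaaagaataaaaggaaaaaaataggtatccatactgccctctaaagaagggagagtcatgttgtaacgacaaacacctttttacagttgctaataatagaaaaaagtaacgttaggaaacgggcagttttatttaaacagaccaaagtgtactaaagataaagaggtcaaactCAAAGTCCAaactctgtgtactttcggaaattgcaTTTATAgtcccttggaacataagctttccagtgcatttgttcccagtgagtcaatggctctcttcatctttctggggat

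Over a global alignment the windows of Cyp2c37 and Cyp2c50 were identical at 86.6% of positions, against a median of 53.7% over the 66 pairs of 12 Cyp2c windows. The most alike pair was Cyp2c68 and Cyp2c69 at 91.1%, where Cyp2c68 had a log2 fold change of −0.26 and Cyp2c69 was not tested. Cyp2c54, which lies between Cyp2c37 and Cyp2c50, had no window in the reference. Cyp2c29 was 60.3% identical to Cyp2c37 and 61.3% to Cyp2c50, and Cyp2c70 was 50.6% identical to Cyp2c37. Both Cyp2c37 and Cyp2c50 held the word TTGCNNCAA on the minus strand, 122 and 120 bases before the start. It occurred in 2.08% of the 32851 promoter windows of the reference. Cyp2c29 held the TATA word TATAAA 19 bases before the start (13.6% of windows). Cyp2c70 held that word on the minus strand and the HNF4A word CAAAGTCCA 64 bases before the start (0.475% of windows). Over the 56 of 66 genes with a window, the TATA word occurred in 21 and the HNF4A word in 9. The STAT word TTCNNNGAA occurred in 4 (8.3% of windows) and the word TTGCNNCAA in 3. None of these words overlapped another in the 4 windows printed. Genes of a cluster arose by duplication and share such words, and a match is a description of letters only.

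Cyp2d genes form a cluster on chromosome 15, and most of the tested ones were nominally higher. The summed level of the 8 members was 1769, 1106 and 1663 CPM in het-labelled libraries, against 895.5, 719, 662, 1002 and 924 CPM in wild-type libraries, so here all 3 lay above. Of 7 tested genes, 5 were nominally higher and 0 lower. Cyp2d26, per length (RPKM) the most abundant of these 8, had 735, 474 and 757 CPM in het-labelled libraries and 397, 242, 282, 394 and 317 CPM in wild-type libraries. The groups did not overlap, and the log2 fold change came to 1.01 (SE 0.24, 95% interval 0.47 to 1.54, edgeR adjusted p = 0.259, DESeq2 adjusted p = 0.0186). It was 0.88 against wild-type libraries 1 and 3 and 0.99 against wild-type libraries 2, 4 and 5.

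Cyp2d22, often treated as the mouse counterpart of human CYP2D6, had 225, 122 and 198 CPM in het-labelled libraries and 125, 87.9, 108, 109.9 and 106 CPM in wild-type libraries. Only library 2 lay within the wild-type values (log2 fold change 0.76, SE 0.21, edgeR adjusted p = 0.259). Cyp2d40 had 98.6, 39.7 and 70.8 CPM in het-labelled libraries and 13.1, 7.99, 7.13, 37.0 and 38.7 CPM in wild-type libraries. All het-labelled values were above, yet library 2 exceeded wild-type library 5 by little (log2 fold change 1.75, SE 0.59, edgeR adjusted p = 0.268). It was 2.72 against wild-type libraries 1 and 3 and 1.27 against the other 3. Cyp2d10 and Cyp2d13 differed by 0.59 and 0.91, with overlapping groups, while Cyp2d11 and Cyp2d12 averaged about 1 CPM or less in both groups.

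**Figure D4:**
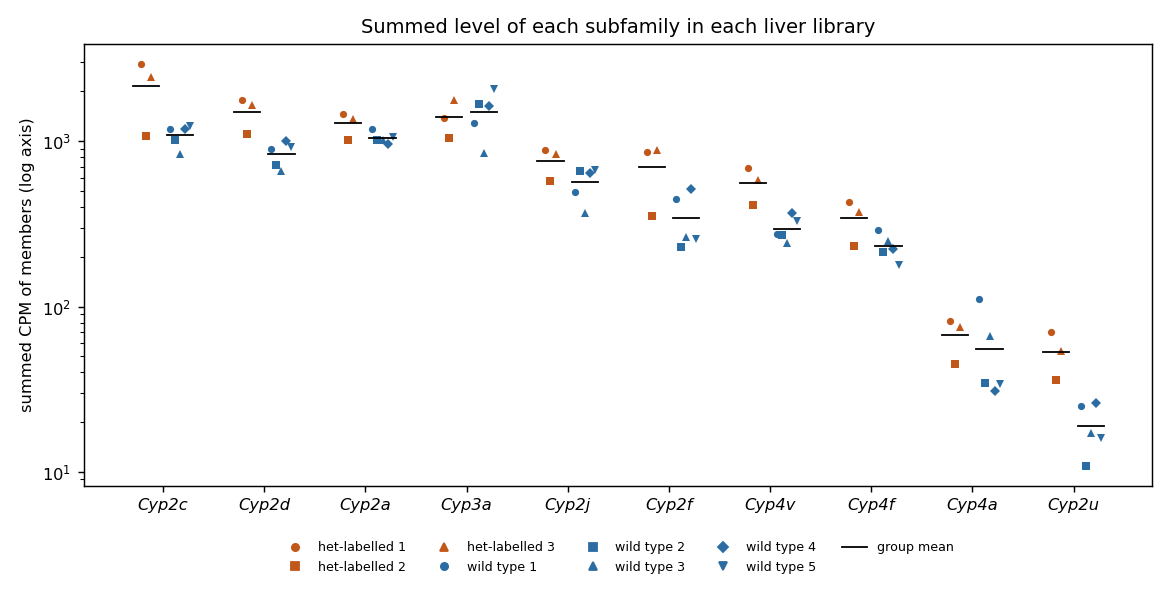
Summed CPM of the members of 10 subfamilies on a log axis, with het-labelled libraries in orange at the left and wild-type libraries in blue at the right of each subfamily, and a bar at each group mean. For Cyp2d, Cyp4v and Cyp2u all orange symbols lie above all blue ones, and for Cyp3a the groups overlap throughout.

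Cyp2f2, which activates naphthalene in mouse airway and liver and marks hepatocytes on the portal side, had 866, 354 and 887 CPM in het-labelled libraries and 445, 229, 265, 512 and 255 CPM in wild-type libraries. Libraries 1 and 3 were above every wild-type value and library 2 within them, as for Cyp2c54, Cyp2c50 and Cyp2c37. The log2 fold change came to 1.04 (SE 0.37, 95% interval 0.20 to 1.88, edgeR adjusted p = 0.269). None of its 50-base words occurred in another gene. Cyp2f2 is also known from lung, where the markers Sftpc and Scgb1a1 were at 0 counts in all 8 libraries.

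The Cyp2a genes, close to Cyp2f2 on chromosome 7, differed less. Cyp2a5, which hydroxylates coumarin and nicotine, had 826, 560.4 and 778 CPM in het-labelled libraries and 802, 659, 701, 453 and 644.5 CPM in wild-type libraries. The groups overlapped, and the log2 fold change of 0.15 had a 95% interval of −0.37 to 0.66 (SE 0.23, edgeR adjusted p = 0.739). It was −0.12 against wild-type libraries 1 and 3 and 0.25 against the other 3. With Cyp2c29, Cyp2c37, Cyp2c50 and Cyp2c54 it makes up the 5 genes listed as pericentral, of which 4 were nominally higher. Cyp2a5 shares 28.1% of its 50-base words with Cyp2a4, so reads of both may be mixed. Cyp2a12, a steroid and bile acid hydroxylase, had 626, 441 and 569.8 CPM in het-labelled libraries and 366.5, 352, 309, 482 and 401 CPM in wild-type libraries, where only library 2 fell short of wild-type library 4 (log2 fold change 0.51, SE 0.20, edgeR adjusted p = 0.282). Cyp2a22 stood at 0.23 (SE 0.49), with 0.98 against wild-type libraries 1 and 3 and −0.17 against the other 3.

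Cyp2u1 and Cyp4v3, each the one member of its subfamily, were higher by similar amounts against either set of wild-type libraries. Cyp2u1, a hydroxylase of long-chain fatty acids in humans, had 69.9, 35.8 and 53.5 CPM in het-labelled libraries and 25.1, 10.9, 17.2, 26.3 and 15.9 CPM in wild-type libraries. The groups did not overlap. Its log2 fold change came to 1.48 (SE 0.31, 95% interval 0.79 to 2.17, edgeR adjusted p = 0.259, DESeq2 adjusted p = 0.00739), 1.26 against wild-type libraries 1 and 3, and 1.53 against wild-type libraries 2, 4 and 5 (edgeR adjusted p = 0.0305).

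Cyp4v3 is the mouse counterpart of human CYP4V2, a fatty acid hydroxylase that is mutated in a crystalline dystrophy of the retina. It had 684.5, 409 and 579.8 CPM in het-labelled libraries and 276, 271, 241, 366 and 328 CPM in wild-type libraries, again without overlap. The log2 fold change came to 0.91 (SE 0.22, edgeR adjusted p = 0.259, DESeq2 adjusted p = 0.0244), and 1.04 and 0.74 against wild-type libraries 1 and 3 and wild-type libraries 2, 4 and 5.

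The Cyp4f genes, most of them clustered on chromosome 17, differed in both directions. Cyp4f14, which hydroxylates leukotriene B4 in mouse liver, had 176.8, 78.1 and 122 CPM in het-labelled libraries and 87.3, 58.2, 67.2, 62.0 and 41.5 CPM in wild-type libraries. Library 2 lay under wild-type library 1 and above the rest (log2 fold change 0.99, SE 0.29, edgeR adjusted p = 0.259). Cyp4f16 was the one gene nominally lower, with 3.32, 5.54 and 4.48 CPM in het-labelled libraries and 8.97, 9.84, 9.30, 6.48 and 5.90 CPM in wild-type libraries. Its groups did not overlap, although library 2 came close to wild-type library 5 (log2 fold change −0.87, SE 0.25, edgeR adjusted p = 0.259, DESeq2 adjusted p = 0.0548). Cyp4f13 was nominally higher (log2 fold change 0.64).

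Cyp4f15 and Cyp4f17 stood at 0.41 and 0.52 and were not among the nominally higher genes. Cyp4f18, a leukotriene hydroxylase of neutrophils, had 2.44, 5.22 and 1.86 CPM in het-labelled libraries and 4.57, 5.05, 7.55, 4.78 and 3.31 CPM in wild-type libraries, with overlap. The neutrophil markers S100a8, S100a9 and Ly6g summed to 6.91 to 21.9 CPM in het-labelled libraries and 5.87 to 50.5 CPM in wild-type libraries, and their part was not tested.

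Of the Cyp3a genes, 0 of 5 tested were nominally higher or lower. Cyp3a25, a steroid and drug hydroxylase, was per length the most abundant gene of the 66, at 516 ± 146 RPKM in het-labelled and 577 ± 191 RPKM in wild-type livers (SD, n = 3 and n = 5). It had 1040.3, 791 and 1404 CPM in het-labelled libraries and 997, 1269, 637, 1282 and 1739 CPM in wild-type libraries. The groups overlapped fully, with a log2 fold change of −0.14 (SE 0.33, 95% interval −0.88 to 0.61). It was 0.33 against wild-type libraries 1 and 3 and −0.46 against the other 3. Cyp3a13 stood at 0.12 (SE 0.24), with 0.32 and −0.09 against those sets, and Cyp3a59 at −0.35 (SE 0.26). Cyp3a59 was −0.69 against wild-type libraries 2, 4 and 5 (edgeR adjusted p = 0.0283) and 0.17 against wild-type libraries 1 and 3, so its direction depended on which wild-type libraries were used. Cyp3a57 and Cyp3a44 averaged under 1 CPM in both groups, and Cyp3a57 stood at −0.89, with 0.39 against wild-type libraries 1 and 3 and −1.45 against the other 3. Of the 6 genes known from female mouse liver, 2 were tested (Cyp3a44 and Cyp2g1) and 0 were nominally higher or lower. The others, Cyp3a16, Cyp3a41a, Cyp3a41b and Cyp2c69, had at most 6 counts in a library.

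Among the Cyp2j genes, which include arachidonate epoxygenases, 0 of 3 tested were nominally higher or lower. Cyp2j5 had 756, 472.5 and 699.9 CPM in het-labelled libraries and 398, 525, 278, 527 and 539.9 CPM in wild-type libraries, with library 2 inside the wild-type range (log2 fold change 0.50, SE 0.26). Cyp2j6 stood at 0.12 (SE 0.19), with 0.40 against wild-type libraries 1 and 3 and −0.11 against the other 3. Cyp2j9 stood at 0.08 (SE 0.27), with −0.10 and 0.11 against those sets. Cyp4a32, of a subfamily known to be induced by PPARα, had 81.3, 44.6 and 74.9 CPM in het-labelled libraries and 111, 34.5, 66.5, 30.7 and 34.0 CPM in wild-type libraries. Its log2 fold change of 0.27 (SE 0.44) was −0.47 against wild-type libraries 1 and 3 and 0.97 against wild-type libraries 2, 4 and 5 (edgeR adjusted p = 0.0284).

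Cyp4b1, better known from lung, was nominally higher, with 16.3, 9.04 and 21.6 CPM in het-labelled libraries and 10.7, 7.93, 8.11, 11.8 and 11.2 CPM in wild-type libraries (log2 fold change 0.66, SE 0.27, edgeR adjusted p = 0.298). Cyp2r1, a vitamin D 25-hydroxylase, stood at −0.17 (SE 0.34), with 0.54 against wild-type libraries 1 and 3 and −0.57 against the other 3. Cyp2s1, known from epithelia, stood at −1.04 (SE 0.69). Cyp2g1, known from olfactory mucosa, stood at 1.14 (SE 0.67) with at most 46 counts in a library, and at 0.02 when het-labelled library 1 was left out. The 24 members that were not tested had at most 27 counts in a library, a value reached by Cyp2c40 in het-labelled library 1. Of these, 7 had 0 counts in all 8 libraries, namely Cyp2b19, Cyp2b23, Cyp2c66, Cyp2j12, Cyp3a41b, Cyp4f40 and Cyp4x1os.

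Wild-type libraries 1 and 3 stood apart from wild-type libraries 2, 4 and 5 for many of these genes, as for many others. In both of the pair the level was above all 3 others for 8 tested genes (19%, against 31.8% of all tested genes), among them Cyp2a5, Cyp2c23, Cyp4a32, Cyp4f13, Cyp4f14, Cyp4f15 and Cyp4f17. It was below all 3 for 11 genes (26.2%, against 31.1%), among them Cyp2c37, Cyp2c68, Cyp2d10, Cyp2j5, Cyp3a25 and Cyp3a59. Against the pair alone edgeR called 0 of 41 tested P450 genes, where 0.0956% of all genes were called higher and 0.0478% lower. Against the other 3 alone it called 8 higher and 2 lower of 41, where 8.4% of all genes were called higher and 10.5% lower. The 8 were Cyp2c23, Cyp2d22, Cyp2d26, Cyp2u1, Cyp4a32, Cyp4f13, Cyp4f14 and Cyp4v3, and the 2 were Cyp2c68 and Cyp3a59. Both comparisons use the same 3 het-labelled libraries. The wild-type sets were formed from the libraries' own values, so these calls are descriptive only. Of the 10, only Cyp2d26, Cyp2u1 and Cyp4v3 had an unadjusted p under 0.05 against the pair as well.

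Genes that serve P450 enzymes were described from short lists, chosen with earlier results of these data known. Over all tested genes, 10.3% were nominally higher and 5.43% lower. Of 10 genes of heme synthesis and breakdown, 5 were nominally higher and 0 lower, with a median log2 fold change of 0.33. Cpox, which carries out a late step of heme synthesis, had 161 ± 32.9 CPM in het-labelled and 78.7 ± 16.0 CPM in wild-type livers (SD, n = 3 and n = 5), a log2 fold change of 1.04 (SE 0.20, edgeR adjusted p = 0.259, DESeq2 adjusted p = 0.00646). Alas1, which sets the rate of the pathway in liver, had 657 ± 92.5 CPM in het-labelled and 409 ± 88.2 CPM in wild-type livers (SD), a log2 fold change of 0.68, and Alad differed by 0.70. Of 6 electron donors and partners, 3 were higher (Cyb5r3 at 0.87, Cyb5b at 0.59, Pgrmc2 at 0.51) and 0 lower. Por, the P450 reductase, stood at 0.46 (SE 0.38), with −0.20 against wild-type libraries 1 and 3 and 1.00 against the other 3 (edgeR adjusted p = 0.0327). Cyb5a, the cytochrome b5 of the endoplasmic reticulum, stood at −0.35 (SE 0.52), with 0.93 and −0.88 against those sets. Pgrmc1 stood at 0.12 (SE 0.36), with 0.80 and −0.28 against them.

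Of 17 regulators of P450 genes, 7 were nominally higher and 0 lower, against 10.3% and 5.43% of all tested genes. Their median log2 fold change was 0.28. Nr1i3, the nuclear receptor CAR, had 194 ± 51.2 CPM in het-labelled and 72.3 ± 35.2 CPM in wild-type livers (SD, n = 3 and n = 5), a log2 fold change of 1.43 (SE 0.38). Ppara differed by 0.73 (SE 0.22), and Hlf, a clock-controlled factor, by 0.98 (SE 0.20, edgeR adjusted p = 0.259, DESeq2 adjusted p = 0.0177). Cebpa stood at 0.07, with 0.52 against wild-type libraries 1 and 3 and −0.25 against the other 3, and Ctnnb1 at −0.18. The epoxide hydrolase gene Ephx2, whose enzyme breaks down epoxides made by Cyp2c and Cyp2j enzymes, differed by 0.69 (SE 0.24) and Ephx1 by 0.38 (SE 0.23).

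**Figure D5:**
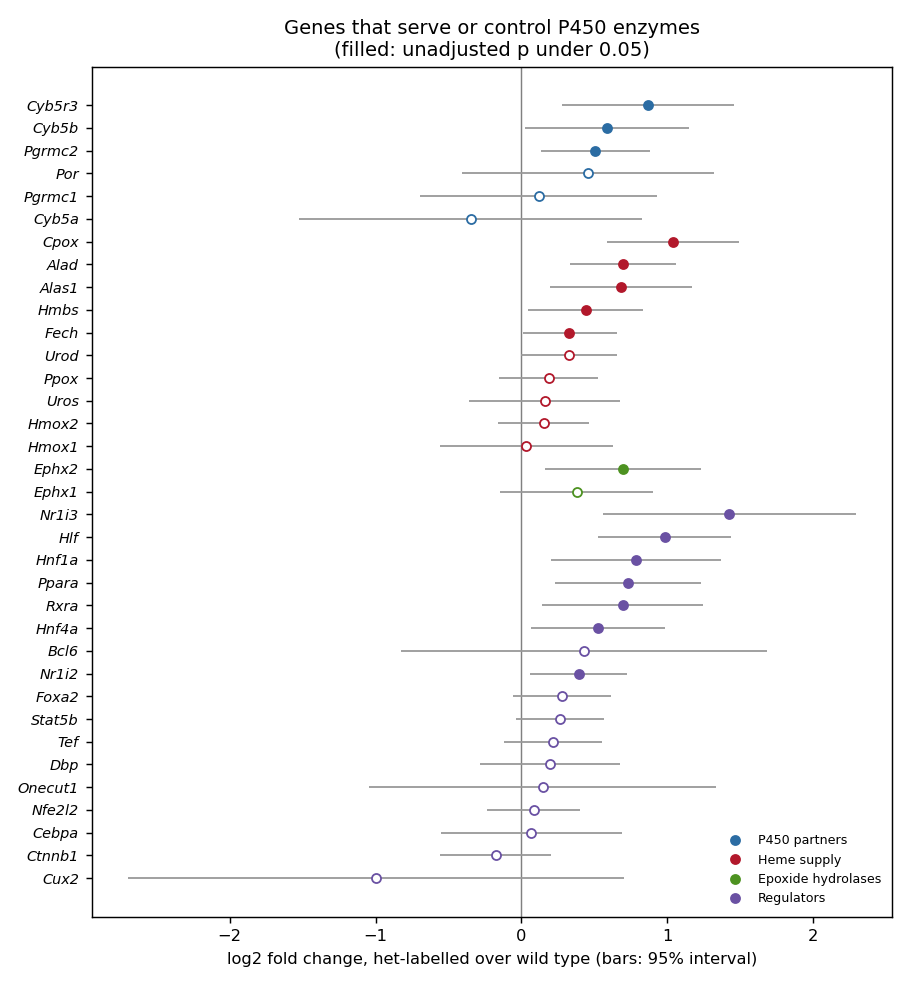
Log2 fold changes (het-labelled over wild type, x axis, 95% interval as bars) of partner, heme, epoxide hydrolase and regulator genes, filled where the unadjusted edgeR p was under 0.05. Nr1i3 at 1.43 and Cpox at 1.04 lie farthest to the right, and all filled symbols lie above 0.

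Markers of other cell types were measured beside these values. Bile duct markers summed to 146, 735 and 157 CPM in het-labelled libraries 1 to 3 and 404 to 869 CPM in wild-type libraries. Macrophage markers summed to 360.2, 547 and 384 CPM in het-labelled libraries and 389 to 782 CPM in wild-type libraries. In both lists het-labelled libraries 1 and 3 lay below every wild-type library and library 2 inside their range. Stellate markers summed to 517, 867 and 407 CPM in het-labelled libraries and 667 to 773 CPM in wild-type libraries, where libraries 1 and 3 lay below and library 2 above. Dcn did the same, while Lrat lay inside the wild-type range in every het-labelled library. Endothelial markers summed to 329, 228 and 320.5 CPM in het-labelled libraries and 213 to 278 CPM in wild-type libraries, where libraries 1 and 3 lay above and library 2 inside. These sums, though not every gene in them, split the het-labelled libraries in the same way as many of the P450 genes did. By edgeR, however, 0 genes of these 4 lists were nominally higher or lower.

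Of 3 T and NK cell markers 1 was nominally lower, with sums of 1.52 to 4.30 CPM in het-labelled and 1.92 to 8.14 CPM in wild-type libraries. Of the intestinal markers, Cdx2 was at 0 counts and Vil1 was found in all 8 libraries, at 0.230 to 2.26 CPM in het-labelled and 0.220 to 3.70 CPM in wild-type libraries. Kidney markers reached at most 0.0922 CPM. Of the 4 hepatocyte markers 1, Ttr, was nominally higher. The part of these lists in the P450 results was not tested.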

How the data were processed

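Liver RNA of 3 het-labelled and 5 wild-type samples was sequenced from libraries made with KAPA mRNA HyperPrep kits, per the labels' protocols. The authors deposited raw counts per gene and RPKM values, made with STAR, HTSeq and bcl2fastq 2.18.0.12 on mm10 per the submitters' processing notes. The strand setting and the annotation were not stated there. Each deposited RPKM value equalled count over exon length over 1 constant per library, to a relative range of at most 3.7e-07 over the genes compared. Replicates were numbered in accession order. No label states separate animals, litters or batches, so the p-values reflect only variation among these samples, which may be technical. Unused sample columns numbered 0.

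Genes were filtered with filterByExpr (minimum count 10, minimum total 15; 14438 kept), scaled by TMM and tested with edgeR 4.0.16's quasi-likelihood test, two-sided, robust, with Benjamini-Hochberg adjustment over all tested genes at 0.05. SE is the log2 fold change over the square root of the test's F. DESeq2 1.42.0, limma 3.58.1, other scalings and filters, log2 RPKM with pseudocounts of 0.1 and 1, and leaving libraries out were the alternatives. The tools ran in R 4.3.3 and Python 3.11.15. The fitting script was tested first on simulated data, drawn independently for each gene and without the split among wild-type libraries. Of 50 genes changed 2-fold there, edgeR called 15 and DESeq2 29. Of 14238 unchanged genes, edgeR called 5 and DESeq2 42.

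Members and lists were chosen with earlier results of these data known. Genes set for naming were Midn, Cyp2c54, Cyp2f2, Cyp2a5, and the highest and the 2 lowest-p genes of each subfamily. So were genes called by either tool and the 3 lowest-p genes of each list. Values are not printed for every gene so set, such as those of the marker lists and of the genes kept out. Other named genes, such as Cyp2c37 and Cyp2d40, were named after their values were seen. Replicate pairs differed beyond counting noise (chi-square per degree of freedom at least 36.0 in het-labelled and 22.9 in wild-type pairs).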

Additional observations from a re-analysis of the deposited data

How the results depend on the processing

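Alternatives were compared with the edgeR result. The number of P450 genes past an adjusted p of 0.05 was 0 in edgeR, 5 in DESeq2 and 10 without wild-type libraries 1 and 3, and 0 in each fit that left out 1 library. Genes higher at an unadjusted p under 0.05 numbered 17, and 7 to 19 with 1 library left out. They numbered 13 with library size alone and 13 on RPKM with either pseudocount. The TMM factors were 0.871, 1.06 and 0.852 in het-labelled libraries 1 to 3 and 0.889 to 1.27 in wild-type libraries. The lower ones numbered 1, and 3 with library size alone, 2 without wild-type libraries 2, 4 and 5, 4 without wild-type libraries 1 and 3, and 1 to 3 with 1 library left out. The median log2 fold change was 0.49, and 0.29 with library size alone. It was 0.21 in DESeq2, which includes genes the filter removed, and 0.33 to 0.63 with 1 library left out. Summed log2 ratios were recomputed for Cyp2a, Cyp2c, Cyp2d, Cyp2j, Cyp3a and Cyp4f, and kept their direction on RPKM and with 1 library left out, except Cyp3a (−0.31 to 0.07).

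Midn, at 0.00, was −0.041 with RLE scaling, −0.26 with library size alone, −0.032 in DESeq2, −0.015 with a mean of at least 1 CPM, −0.54 without wild-type libraries 2, 4 and 5, 0.40 without wild-type libraries 1 and 3, and −0.14 to 0.17 with 1 library left out. With library size alone Cyp2a5 was −0.083, Cyp2j6 −0.05 and Cyp4a32 −0.012. Without wild-type libraries 2, 4 and 5, Cyp2a5 was −0.12, Cyp4a32 −0.47, Cyp2r1 0.54, Cyp3a25 0.33, Cyp3a59 0.17 and Cyp3a57 0.39. Without wild-type libraries 1 and 3, Cyp2j6 was −0.11. With 1 library left out, Cyp3a25 ran from −0.37 to 0.05 and Cyp2r1 from −0.38 to 0.082. The cause of these changes was not tested. No paired analysis was possible because the labels give no number shared between genotypes.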

Other observations

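P450 genes of other families were not followed above. Of 22 such genes 16 were tested, with a median log2 fold change of 0.28. In edgeR at p under 0.05 before adjustment, 5 stood higher and 1 lower, against 10.3% and 5.43% of all tested genes. Cyp7b1, an oxysterol hydroxylase that is more abundant in male mouse liver, had 119 ± 51.8 CPM in het-labelled and 47.0 ± 11.5 CPM in wild-type livers (SD, n = 3 and n = 5), a log2 fold change of 1.34 (SE 0.30, edgeR adjusted p = 0.259, DESeq2 adjusted p = 0.0141). Cyp1a2 had 246 ± 77.8 CPM in het-labelled and 68.7 ± 23.6 CPM in wild-type livers (SD). Its log2 fold change came to 1.84 (SE 0.31, edgeR adjusted p = 0.259, DESeq2 adjusted p = 0.000281). Cyp27a1, the mitochondrial sterol 27-hydroxylase, differed by 0.69 (SE 0.21). Of the 13 genes of families 2 to 4 that were kept out, 3 stood higher and 4 lower at that level.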
